A study of Mus musculus with 9 samples.

Results

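AlphaIRS1KD cells were compared directly with alphaIRS2KD cells, both derived from alpha TC6, a glucagon-producing alpha-cell line that was established from a mouse tumour. Each line carried a lentiviral short hairpin RNA, against IRS1 in alphaIRS1KD cells and against IRS2 in alphaIRS2KD cells, and was kept as a stable line after selection with puromycin in medium with fetal bovine serum. Members were chosen by the genotype label alone, which gave 6 of the 9 arrays of the series, 3 alphaIRS1KD and 3 alphaIRS2KD. The other 3 arrays came from control cells that carried a nonsilencing hairpin and went through the same selection, and they entered neither the test nor the counts; their levels are given beside the values of some genes.

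Because 1 line stood for each knockdown, the knockdown and the line cannot be told apart. It is not stated whether the 3 arrays of a line came from separate cultures, and the spread behind each p-value may therefore be technical alone. Total RNA was hybridized to Affymetrix Mouse Gene 2.0 ST arrays, and all signals below are on the log2 scale after RMA, so that 1 unit is a 2-fold difference. The files carry no detection call, and a low signal may be background: the median signal of an array lay between 5.03 and 5.11. In RNA from whole cultures, fewer cells of a type and less RNA per cell cannot be told apart.

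Insulin receptor substrates are docking proteins. The activated insulin or IGF1 receptor phosphorylates them on tyrosines, and they then recruit phosphatidylinositol 3-kinase, which leads to AKT, FOXO and mTORC1, and GRB2, which leads to RAS and ERK. Most cells hold both IRS1 and IRS2, and in alpha cells the pathway is known for its part in holding back glucagon release.

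Irs1 and Irs2 were examined first, as the targets of the hairpins. Irs1 gave 7.16, 7.12 and 7.22 in alphaIRS1KD cells, against 8.10, 8.16 and 8.01 in alphaIRS2KD cells, with control levels of 8.06 to 8.09. Irs2 gave 10.44, 10.56 and 10.51 in alphaIRS1KD cells, against 10.09, 10.02 and 10.11 in alphaIRS2KD cells, with control levels of 10.58 to 10.72. Each target was therefore lowest in its own knockdown, with no overlap between the lines. Irs1 was 1.90-fold lower in alphaIRS1KD cells (log2 difference -0.92, SE 0.06, limma adjusted p = 0.0021), and Irs2 was 1.35-fold higher in them (0.43, SE 0.06, adjusted p = 0.018). Irs2 lost its call when any 1 array was left out other than alphaIRS2KD replicate 3 (without alphaIRS1KD replicate 1, 2 or 3, adjusted p = 0.059, 0.098 and 0.093; without alphaIRS2KD replicate 1 or 2, adjusted p = 0.078 and 0.070), while Irs1 kept its own in all 6 such fits. A second and dimmer probe for Irs1 differed by -0.27, which did not pass the test (adjusted p = 0.43 over all probes).

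Among 22180 genes, 213 were higher in alphaIRS1KD cells than in alphaIRS2KD cells (0.96%) and 298 were lower (1.34%) at an adjusted p under 0.05, 511 in all (2.3%). Most differences were small. The median size of a called difference was 0.57 on the log2 scale, 262 of the 511 called genes (51.3%) differed by less than 1.5-fold, and 28 higher and 49 lower genes differed by at least 2-fold. The median difference of all genes was 0.01, with 5% of genes below -0.26 and 5% above 0.25. The arrays of the 2 lines did not overlap for 1978 genes in the higher direction (8.92%) and for 2105 in the lower (9.49%), which sets the background for any statement that single genes did not overlap. The mean control level lay below both knockdown means for 119 of the 213 higher genes, between them for 86 and above both for 8. For the 298 lower genes it lay above both knockdown means for 134, between them for 140 and below both for 24.

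The counts depended on which arrays were in the fit. With the control arrays also in the fit, which adds degrees of freedom for the spread, 380 genes were higher (1.71%) and 536 lower (2.42%), and these held 205 of the 213 and 295 of the 298 genes. AlphaIRS2KD replicate 3 stood apart on the second principal component (22.02, against -10.9 to -0.34 for the other 5 arrays), and the median SD over genes was 0.075 in alphaIRS1KD and 0.104 in alphaIRS2KD cells. Without that array 153 genes were higher (0.69%) and 287 lower (1.29%), and 132 and 221 of these were also called with all 6. Leaving out alphaIRS1KD replicate 1, 2 or 3 gave 56, 51 and 60 higher genes and 99, 76 and 104 lower ones, and leaving out alphaIRS2KD replicate 1 or 2 gave 71 and 61 higher and 110 and 106 lower ones. The mean distance between arrays of different lines (37.1) was larger than within alphaIRS1KD (26.5) and within alphaIRS2KD cells (33.1), and an exact permutation test gave p = 0.1, the smallest that 3 arrays against 3 can give.

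**Figure D1:**
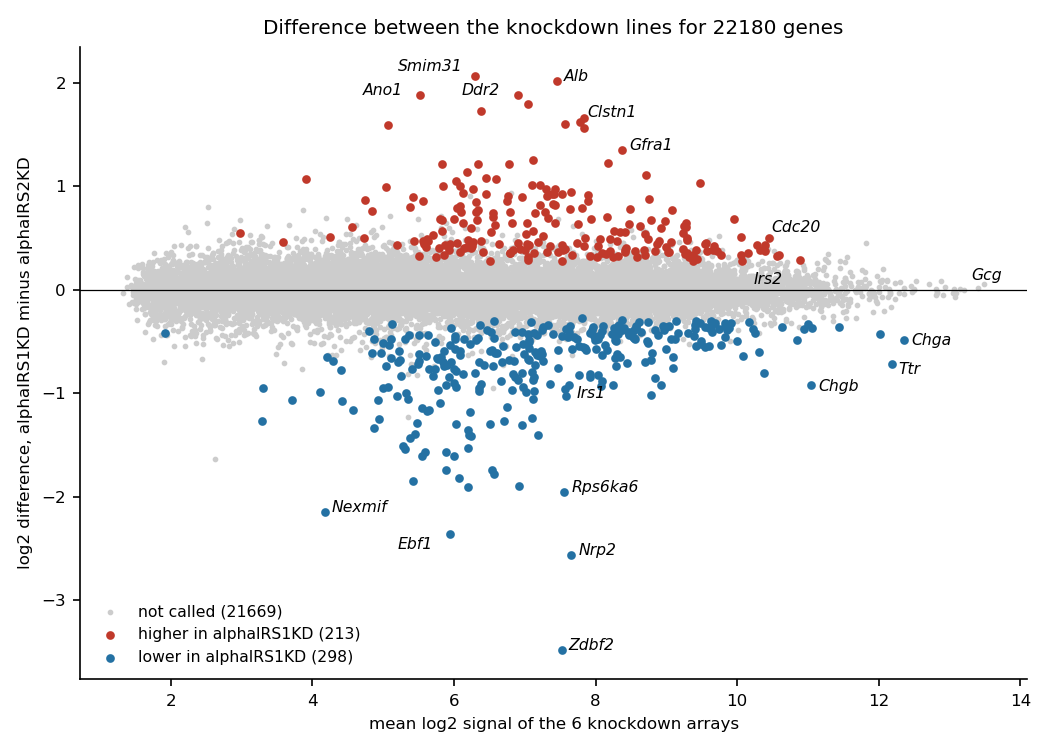
Log2 difference between alphaIRS1KD and alphaIRS2KD cells (vertical axis) against the mean log2 signal of the 6 arrays (horizontal axis), with each point 1 of 22180 genes, 213 called higher and 298 called lower. The largest differences lay at middle signals, Zdbf2 being the lowest at -3.49 and Smim31 the highest at 2.07, while Gcg at the right edge lay at 0.

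The genes that were most strongly lower in alphaIRS1KD cells were Zdbf2, Nrp2 and Ebf1. Zdbf2, a zinc finger gene that is imprinted and read from the paternal copy, gave 6.06, 5.72 and 5.55 in alphaIRS1KD cells, against 9.28, 9.24 and 9.28 in alphaIRS2KD cells, with control levels of 10.64 to 10.74. It was 11.2-fold lower (-3.49, SE 0.13, adjusted p = 0.00027), the largest difference of the comparison, and both knockdown lines lay below the control arrays. Nrp2, a receptor for class 3 semaphorins and for VEGF, gave 6.54, 6.25 and 6.33 in alphaIRS1KD cells, against 8.91, 8.92 and 8.97 in alphaIRS2KD cells, with control levels of 8.49 to 8.61. It was 5.90-fold lower (-2.56, SE 0.08, adjusted p = 0.00027), with the alphaIRS1KD arrays the only low ones. Ebf1, a transcription factor best known from B lymphocytes, gave 4.98, 4.38 and 4.95 in alphaIRS1KD cells, against 7.30, 6.94 and 7.14 in alphaIRS2KD cells, with control levels of 5.69 to 5.90. Here the control arrays lay between the lines, and the difference was 5.13-fold (-2.36, SE 0.18, adjusted p = 0.0029). Every alphaIRS1KD signal of Ebf1 lay below the array medians, so its fold rests on a signal that may be background.

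Nrp2 and Zdbf2 lie close together on chromosome 1, with 6 measured genes between them. None of the 6 was called, among them Ino80d, a subunit of a chromatin remodeller (-0.08, adjusted p = 0.73), Ndufs1, a subunit of respiratory complex I (-0.09, adjusted p = 0.58), and Eef1b2, a translation elongation factor (0.08, adjusted p = 0.56). Adam23, a membrane protein of the disintegrin family and the next measured gene after Zdbf2, was lower, with 7.96, 8.02 and 7.98 in alphaIRS1KD cells, against 8.61, 8.61 and 8.61 in alphaIRS2KD cells (-0.62, SE 0.05, adjusted p = 0.0030).

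**Figure D2:**
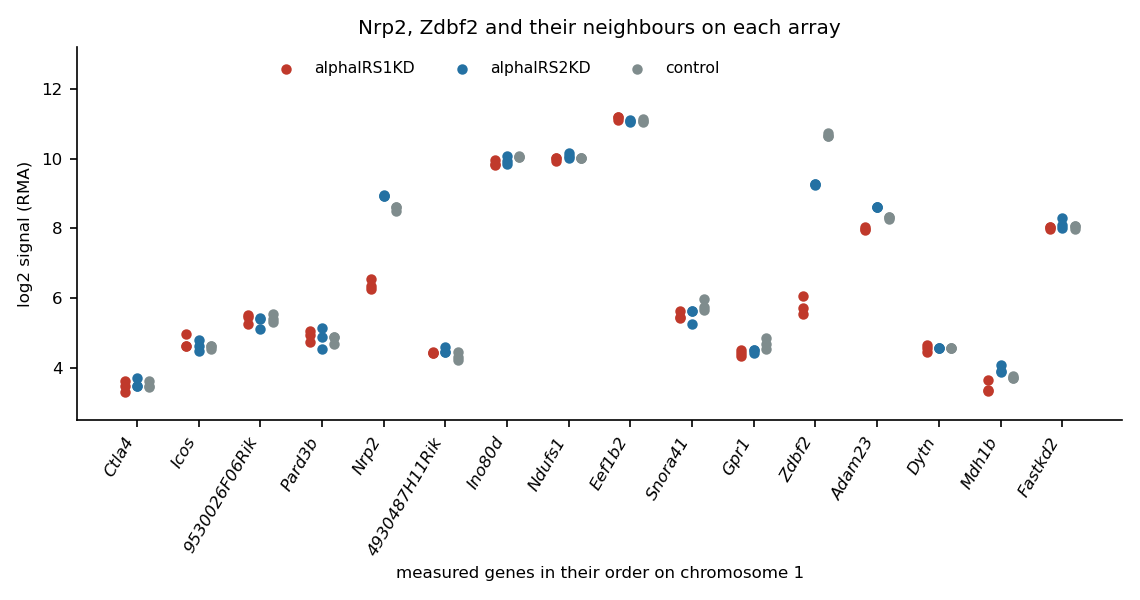
Log2 signal of each array (points) for 16 measured genes in their order on chromosome 1, for alphaIRS1KD, alphaIRS2KD and control cells. Nrp2 and Zdbf2 were low in alphaIRS1KD cells (6.25 to 6.54 and 5.55 to 6.06), and none of the 6 genes between them was called.

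Irs1 itself had a lower neighbour. Nyap2, which encodes a neuronal adaptor that binds phosphatidylinositol 3-kinase and is the measured gene next to Irs1, gave 5.10, 4.73 and 4.62 in alphaIRS1KD cells, against 6.37, 6.42 and 6.36 in alphaIRS2KD cells, with control levels of 5.37 to 5.46 between them. It was 2.96-fold lower (-1.57, SE 0.12, adjusted p = 0.0030).

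Among the kinases, Rps6ka6 (RSK4, a ribosomal S6 kinase that ERK activates) was 3.89-fold lower. It gave 6.67, 6.59 and 6.47 in alphaIRS1KD cells, against 8.51, 8.67 and 8.43 in alphaIRS2KD cells, with control levels of 8.50 to 8.58 (-1.96, SE 0.08, adjusted p = 0.00058). The other strongly lower genes were Nexmif, a gene of neurite growth (-2.15), Plpp3, a phosphatase of lysophospholipids (-1.90), Morc4, a nuclear ATPase (-1.74), Ghsr, the ghrelin receptor (-1.74), Penk, the precursor of the enkephalins (-1.61), and Otud7a, a deubiquitinase (-1.60), with adjusted p between 0.0011 and 0.013. Nexmif lay at 2.76 to 3.27 in alphaIRS1KD cells, far below the array medians, against 4.71 to 5.68 in alphaIRS2KD cells, so its fold rests on a signal that may be background.

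On the other side stood Smim31, Alb, Ddr2 and Ano1. Smim31, which encodes a small membrane protein, gave 7.18, 7.46 and 7.37 in alphaIRS1KD cells, against 5.29, 5.63 and 4.90 in alphaIRS2KD cells, with control levels of 5.09 to 5.33 (4.20-fold higher, adjusted p = 0.0044). Alb, the serum albumin gene, gave 8.46, 8.58 and 8.34 in alphaIRS1KD cells, against 6.30, 6.73 and 6.29 in alphaIRS2KD cells (4.06-fold higher, adjusted p = 0.0021). The control arrays, at 7.02 to 7.16, lay between the lines for Alb and beside alphaIRS2KD cells for Smim31. Ddr2, a receptor tyrosine kinase that collagen activates, gave 7.81, 7.90 and 7.84 in alphaIRS1KD cells, against 6.27, 5.78 and 5.82 in alphaIRS2KD cells, with control levels of 7.13 to 7.24 (3.70-fold higher, adjusted p = 0.0023). Ano1, the calcium-activated chloride channel, gave 6.41, 6.64 and 6.32 in alphaIRS1KD cells, against 4.23, 4.85 and 4.66 in alphaIRS2KD cells, with control levels of 4.33 to 4.87 (3.69-fold higher, adjusted p = 0.0045). For Ano1 the alphaIRS2KD and control arrays covered the same range. That range lay below the array medians and may be background.

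Pdpn (podoplanin, a membrane glycoprotein) and Nfib (a transcription factor of the nuclear factor I family) were the higher genes with the smallest adjusted p. Pdpn gave 8.35, 8.31 and 8.43 in alphaIRS1KD cells, against 6.73, 6.79 and 6.79 in alphaIRS2KD cells, with control levels of 7.21 to 7.36 (3.03-fold higher, adjusted p = 0.00027). Nfib gave 8.63, 8.66 and 8.58 in alphaIRS1KD cells, against 7.09, 7.04 and 7.05 in alphaIRS2KD cells, with control levels of 6.38 to 6.44 (2.96-fold higher, adjusted p = 0.00027). Both knockdown lines lay above the control arrays for Nfib, and they lay on either side of them for Pdpn. Further higher genes of this size were B3gat1, which makes the HNK-1 sugar epitope (1.79), Elmo1, an activator of Rac (1.73), Slc35f1, a putative solute carrier (1.67), Clstn1, a calsyntenin of vesicles and synapses (1.62), Gfra1, the GDNF co-receptor (1.35), Grap2, an adaptor of T-cell signaling (1.25), Timp2, an inhibitor of metalloproteases (1.22), and Ak5, an adenylate kinase (1.22), with adjusted p between 0.00085 and 0.0049. A dimmer second probe of Gfra1 differed by 0.54 without a call (adjusted p = 0.35 over all probes), and that of Slc35f1 by 1.64 (adjusted p = 0.056).

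**Figure D3:**
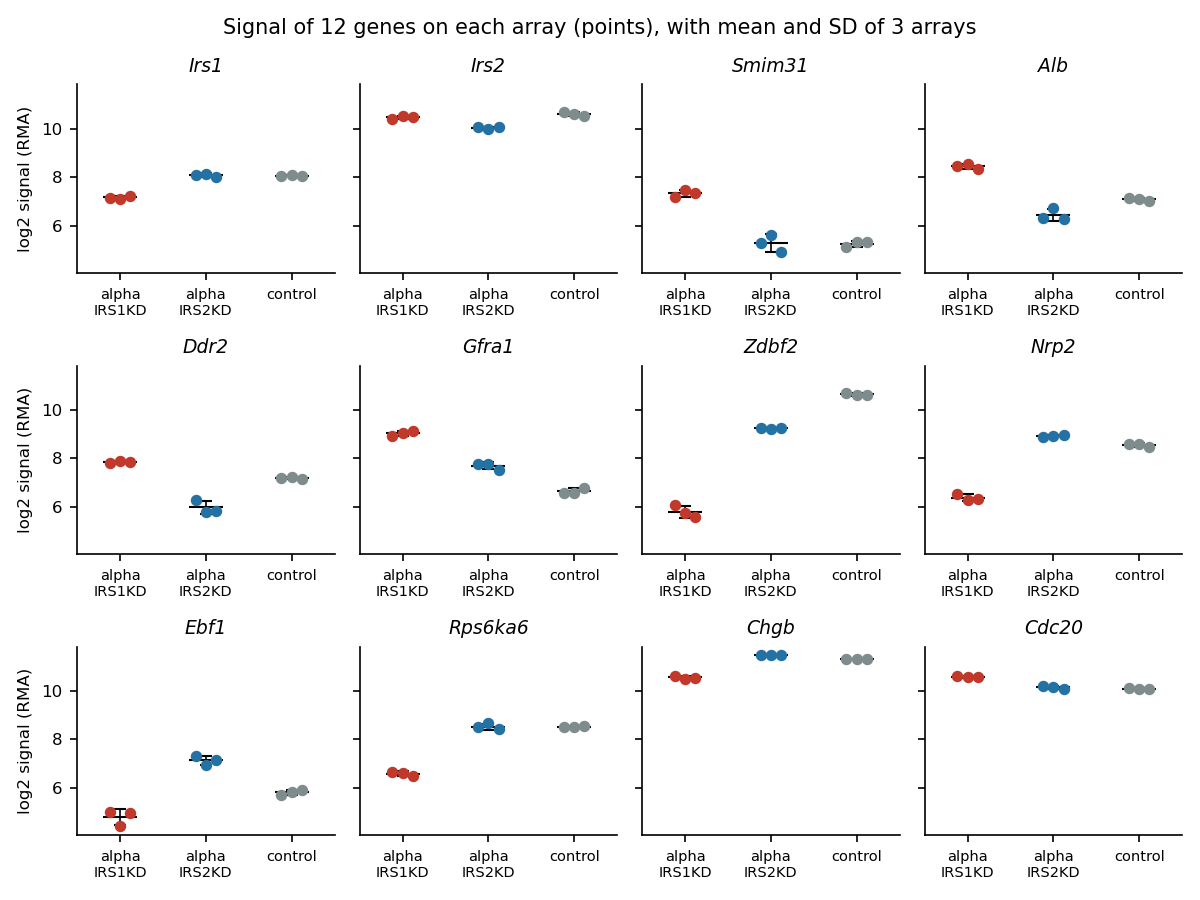
Log2 signal on each array (points) with the mean and SD of 3 arrays for 12 genes, in alphaIRS1KD, alphaIRS2KD and control cells from left to right. Irs1 was lowest in alphaIRS1KD and Irs2 lowest in alphaIRS2KD cells; Zdbf2, Nrp2, Ebf1, Rps6ka6 and Chgb were lower, and Smim31, Alb, Ddr2, Gfra1 and Cdc20 higher, in alphaIRS1KD cells, with no overlap between the knockdown lines.

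Genes that run mitosis were higher in alphaIRS1KD cells as a group. Their list, like all gene lists below, was chosen with earlier results of these data known. None of these lists is therefore independent evidence of its direction. Of 62 measured genes of the spindle, kinetochore, cytokinesis and mitotic entry, 22 were called higher (35.5%, against 0.96% of all genes) and 0 lower; all 62 differences were positive, the median was 0.30 (0.01 for all genes), and the arrays did not overlap for 57 (8.92% of all genes in this direction). The differences were small, from 0.08 to 0.56. By cell counts and incorporation of the label BrdU, the paper found no significant change in proliferation in either knockdown line. Cdc25c, the phosphatase that activates CDK1 at mitotic entry, gave 8.70, 8.68 and 8.71 in alphaIRS1KD cells, against 8.23, 8.17 and 8.01 in alphaIRS2KD cells (0.56, SE 0.07, adjusted p = 0.013). Dlgap5, which bundles spindle microtubules, gave 9.33, 9.25 and 9.31 in alphaIRS1KD cells, against 8.83, 8.86 and 8.81 in alphaIRS2KD cells (0.46, SE 0.05, adjusted p = 0.0095). Cdc20, the activator of the anaphase-promoting complex, gave 10.64, 10.59 and 10.59 in alphaIRS1KD cells, against 10.21, 10.19 and 10.11 in alphaIRS2KD cells (0.44, SE 0.05, adjusted p = 0.013). The alphaIRS1KD arrays lay above those of alphaIRS2KD cells in each of these genes. Control levels were 8.04 to 8.16 for Cdc25c, 8.86 to 8.97 for Dlgap5 and 10.09 to 10.14 for Cdc20, all below alphaIRS1KD cells.

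The called genes also held Ckap2 and Ckap2l, proteins of spindle microtubules and poles (0.44 each), Kif2c, a kinesin that takes microtubules apart (0.42), Racgap1, which with Kif23 forms the central spindle (0.38), Kif20a, a kinesin of cytokinesis (0.34), Plk1, the polo-like kinase (0.33), Prc1, which bundles the microtubules of the midzone (0.29), and Foxm1, a transcription factor of mitotic genes (0.28), with adjusted p between 0.021 and 0.048. Gas2l3, a cytoskeletal linker of dividing cells that is not in the list, was higher too (0.50, adjusted p = 0.019). Cdk1, the kinase that drives entry into mitosis (0.18, adjusted p = 0.25), Mki67, the proliferation marker (0.28, adjusted p = 0.068), Top2a, a topoisomerase (0.14, adjusted p = 0.32), and Aurkb, a kinase of the chromosomal passenger complex (0.36, adjusted p = 0.088), did not pass the test. The summed linear signal of the list ran between 61367 and 61950 in alphaIRS1KD cells, and between 48937 and 52208 in alphaIRS2KD cells.

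The number of calls in this group changed with the arrays in the fit, as did the number of higher genes over all genes. It was 40 with the control arrays also in the fit (380 over all genes) and 10 without alphaIRS2KD replicate 3 (153). Without alphaIRS2KD replicate 1 or 2 it was 1 (71 and 61 over all genes). Without alphaIRS1KD replicate 1, 2 or 3 it was 0 (56, 51 and 60). The median difference of the list was 0.27 without alphaIRS2KD replicate 3, against 0.30 with all 6 arrays. Of 68 genes of DNA replication and the G1/S transition, 1 was called higher (Mcm10, a replication initiation factor, 0.37, adjusted p = 0.034) and 1 lower (Ccnd2, a D-type cyclin, -0.83, adjusted p = 0.024), with a median of 0.10. Each was 1.47% of the list, against 0.96% of all genes called higher and 1.34% called lower.

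**Figure D4:**
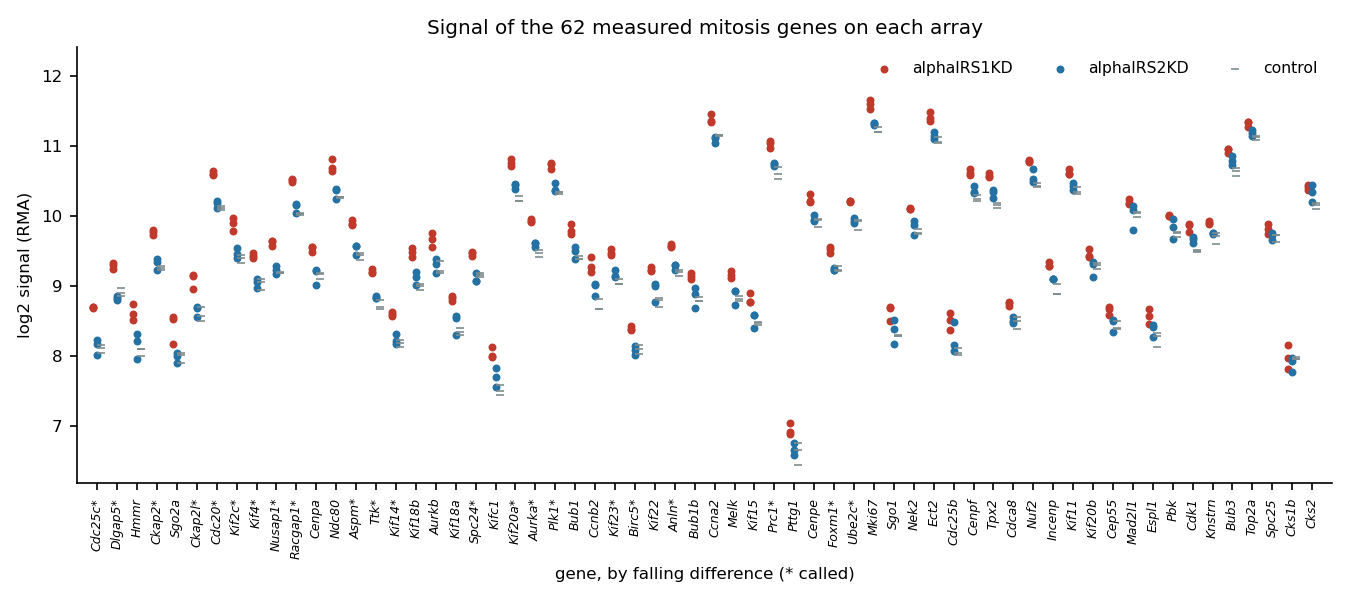
Log2 signal of each array for the 62 measured mitosis genes, ordered by the difference between alphaIRS1KD and alphaIRS2KD cells, with called genes starred and control arrays as dashes. The alphaIRS1KD points lay above the alphaIRS2KD points in 57 genes, and the differences ran from 0.56 for Cdc25c to 0.08 for Cks2.

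Promoters of the mitosis list were read from RefSeq (GRCm38.p6, 250 bases before to 50 after the start, 1 per gene) to show what these genes share in sequence. Promoters of many genes that peak in G2 and mitosis are known to hold a CCAAT box, which NF-Y binds, and the element TTTGAA, called CHR, which is bound by the MuvB complexes. Both strands were searched, and neither motif holds the other. TTTGAA stood in 37 of the 52 mitosis genes with a promoter in the table (71.2%), against 18.1% of all 27025 promoters, and CCAAT in 38 (73.1%), against 37.9%. Both stood in 31 (59.6%), against 7.12%. In the 17 called mitosis genes with a promoter, TTTGAA stood in 15 and CCAAT in 13, and in the 35 not called, in 22 and 25. The list was chosen for mitosis, so these shares describe mitotic genes and not the difference between the lines; among the 163 genes called higher that had a promoter, which include these mitosis genes, 18.4% held TTTGAA, 44.8% held CCAAT and 14.7% held both. The promoters of 4 called genes with both motifs are shown, with the matches in capitals, and that of Chgb, a granule gene that was lower in alphaIRS1KD cells and holds neither.
Ckap2: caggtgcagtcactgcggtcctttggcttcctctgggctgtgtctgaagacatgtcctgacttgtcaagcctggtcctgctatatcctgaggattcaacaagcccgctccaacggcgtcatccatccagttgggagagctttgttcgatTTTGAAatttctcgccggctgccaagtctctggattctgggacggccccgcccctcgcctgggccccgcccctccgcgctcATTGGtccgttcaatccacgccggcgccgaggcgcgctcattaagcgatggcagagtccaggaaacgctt
Ckap2l: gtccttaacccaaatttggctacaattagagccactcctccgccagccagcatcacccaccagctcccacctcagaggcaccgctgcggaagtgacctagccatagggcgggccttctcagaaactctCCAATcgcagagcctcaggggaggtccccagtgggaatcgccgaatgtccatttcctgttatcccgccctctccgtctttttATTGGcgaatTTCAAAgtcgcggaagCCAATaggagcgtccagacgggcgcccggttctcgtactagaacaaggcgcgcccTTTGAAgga
Cdc20: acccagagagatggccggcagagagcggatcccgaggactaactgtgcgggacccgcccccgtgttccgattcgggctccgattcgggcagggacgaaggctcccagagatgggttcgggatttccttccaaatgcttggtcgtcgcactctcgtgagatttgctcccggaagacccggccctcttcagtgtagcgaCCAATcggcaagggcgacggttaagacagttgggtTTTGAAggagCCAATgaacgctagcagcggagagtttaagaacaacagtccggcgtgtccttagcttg
Racgap1: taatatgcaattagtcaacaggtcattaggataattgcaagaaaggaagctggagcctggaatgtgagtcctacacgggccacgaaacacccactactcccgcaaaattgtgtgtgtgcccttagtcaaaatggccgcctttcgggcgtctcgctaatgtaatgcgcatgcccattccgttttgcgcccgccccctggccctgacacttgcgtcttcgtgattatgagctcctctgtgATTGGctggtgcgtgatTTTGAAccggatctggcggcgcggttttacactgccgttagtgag
Chgb: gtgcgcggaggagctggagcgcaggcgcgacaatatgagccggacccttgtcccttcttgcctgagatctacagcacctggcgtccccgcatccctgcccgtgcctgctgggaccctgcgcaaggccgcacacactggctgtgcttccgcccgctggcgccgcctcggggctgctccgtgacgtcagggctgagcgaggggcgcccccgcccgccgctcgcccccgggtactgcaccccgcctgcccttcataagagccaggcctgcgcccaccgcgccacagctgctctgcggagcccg
They lie at chr8:22185770-22186069, minus strand (Ckap2), chr2:129297163-129297462, minus strand (Ckap2l), chr4:118437294-118437593, minus strand (Cdc20), chr15:99651607-99651906, minus strand (Racgap1) and chr2:132781392-132781691, plus strand (Chgb). Ckap2l holds 3 CCAAT and 2 TTTGAA matches, Cdc20 holds 2 and 1, and Ckap2 and Racgap1 hold 1 of each. A match describes the letters of a promoter and does not show that a factor binds there.

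Genes of hormone granules and prohormone processing were lower in alphaIRS1KD cells. Of 28 measured, 13 were called lower (46.4%, against 1.34% of all genes) and 0 higher, with a median of -0.32. The list holds Tapbp, Pam, Tpp1, Scg5 and Cartpt, which the study picked from these arrays, so it is not independent evidence of its direction. Chgb, a granin that makes up the granule core, gave 10.65, 10.52 and 10.57 in alphaIRS1KD cells, against 11.50, 11.51 and 11.51 in alphaIRS2KD cells, with control levels of 11.36 on all arrays (1.90-fold lower, SE 0.05 on the log2 scale, adjusted p = 0.0015). Vgf, the precursor of several neuropeptides, gave 8.35, 8.46 and 8.44 in alphaIRS1KD cells, against 9.31, 9.32 and 9.18 in alphaIRS2KD cells (-0.85, adjusted p = 0.0028). Cartpt, the precursor of the CART peptides, gave 7.51, 7.48 and 7.49 in alphaIRS1KD cells, against 8.45, 8.39 and 8.18 in alphaIRS2KD cells (-0.85, adjusted p = 0.0053). All alphaIRS1KD arrays lay below the control arrays for these 3 genes (control levels of 8.80 to 8.82 for Vgf and 8.10 to 8.18 for Cartpt). All alphaIRS2KD arrays lay above them for Chgb and Vgf, while for Cartpt replicate 3 lay within the control range.

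Chga, another granin, gave 12.09, 12.06 and 12.21 in alphaIRS1KD cells, against 12.56, 12.59 and 12.66 in alphaIRS2KD cells (-0.49, adjusted p = 0.016). Pam, the enzyme that amidates peptides, gave 11.27, 11.26 and 11.26 in alphaIRS1KD cells, against 11.58, 11.65 and 11.64 in alphaIRS2KD cells (-0.36, adjusted p = 0.019). Both were lower in every alphaIRS1KD array than in any alphaIRS2KD array. The others called were Scg5, the chaperone of prohormone convertase 2 (-0.47), Scg3, a granin that binds membranes (-0.31), Resp18, a protein of the secretory pathway (-0.48), Ptprn and Ptprn2, tyrosine phosphatase-like proteins of the granule membrane (-0.43 and -0.36), Nucb2, the precursor of nesfatin (-0.43), Ctsl, a lysosomal protease (-0.41), and Tapbp, with adjusted p between 0.0072 and 0.044. Tapbp, or tapasin, loads peptide on MHC class I and is no granule protein (-0.61); its second probe differed by -0.16 (adjusted p = 0.44 over all probes). Tpp1, a lysosomal peptidase, differed by -0.32 (adjusted p = 0.065), Cpe, carboxypeptidase E, by -0.08 (adjusted p = 0.57), and Scg2, a granin, by -0.21 (adjusted p = 0.18). The list had 14 calls with the control arrays in the fit, 4, 3 and 7 without alphaIRS1KD replicate 1, 2 or 3, 6 and 5 without alphaIRS2KD replicate 1 or 2, and 11 without alphaIRS2KD replicate 3.

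Gcg, the glucagon gene, had a signal of 13.21 on all 6 arrays (difference 0.00, SE 0.05, adjusted p = 0.98) and control levels of 13.23 to 13.25. The brightest probes of the arrays lay at 13.53 to 13.61, so Gcg was measured near the top of the scale. Of 9 measured alpha-cell markers, all above an array's median signal, Pax6, a transcription factor that drives glucagon expression, was higher (9.28, 9.22 and 9.15 in alphaIRS1KD cells, against 8.82, 8.82 and 8.91 in alphaIRS2KD cells; adjusted p = 0.033), and Ttr, transthyretin, was 1.64-fold lower (11.89, 11.86 and 11.72 in alphaIRS1KD cells, against 12.55, 12.53 and 12.53 in alphaIRS2KD cells; adjusted p = 0.0039). Pax6 and Ttr were each 11.1% of these markers, against 0.96% of all genes called higher and 1.34% called lower. Prox1, another islet transcription factor, was higher (0.56, adjusted p = 0.011). None of 9 beta-cell, 8 fibroblast and stellate, or 9 endothelial and blood markers was called. Of 6 delta- and PP-cell markers 1, Ghsr, was lower (16.7%, against 1.34% of all genes) and 0 higher. Of 9 acinar and ductal markers 1 was lower (11.1%) and 0 higher. It was Sox9, a transcription factor of ducts (-0.47, adjusted p = 0.024). Iapp, the beta-cell peptide, lay at 4.65 to 4.86 in alphaIRS1KD cells and at 5.11, 6.35 and 6.44 in alphaIRS2KD cells (adjusted p = 0.17).

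Of 48 exocytosis genes, 3 were lower (6.25%, against 1.34% of all genes) and 0 higher, with a median of -0.06. Syt5, a calcium sensor of vesicles, gave 8.64, 8.36 and 8.40 in alphaIRS1KD cells, against 9.44, 9.40 and 9.31 in alphaIRS2KD cells (1.89-fold lower, adjusted p = 0.0053). Stx3, a syntaxin, gave 5.49, 5.27 and 5.29 in alphaIRS1KD cells, against 6.13, 6.12 and 6.08 in alphaIRS2KD cells (1.70-fold lower, adjusted p = 0.0056). Sytl5, a Rab27 effector, was lower by less (-0.32, adjusted p = 0.032), and Snap25, a SNARE, differed by -0.30 (adjusted p = 0.11). The list had 2 calls without each of the 6 arrays in turn.

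Of 59 genes of lysosomal enzymes and the vacuolar proton pump, 8 were lower (13.6%, against 1.34% of all genes) and 0 higher. Among genes with a mean log2 signal above 7, 2.16% were called lower. In the lysosomal list 51 differences were negative, with a median of -0.13. The 8 were enzymes and lipid handlers, not pump subunits: Lipa, the acid lipase (-0.53), Hexa (-0.49), Gusb (-0.42), Man2b1 (-0.41) and Gaa (-0.37), which cut sugars, the cathepsins Ctsl (-0.41) and Ctsd (-0.38), and Npc2, which binds cholesterol (-0.38), with adjusted p between 0.016 and 0.035. Gaa gave 10.87, 10.85 and 10.90 in alphaIRS1KD cells, against 11.30, 11.24 and 11.20 in alphaIRS2KD cells. Of 49 genes of ER chaperones, the translocon and the unfolded protein response, 5 were lower (10.2%, against 1.34% of all genes) and 0 higher, with a median of -0.16. These 5 were Sec62, of the translocon (-0.50), Pdia5 and Pdia6, disulfide isomerases (-0.43 and -0.33), Syvn1, a ligase of ER-associated degradation (-0.39), and Hyou1, a chaperone (-0.34), with adjusted p between 0.028 and 0.045. Eif2ak3 (PERK), a stress sensor, differed by -0.26 (adjusted p = 0.066). Without alphaIRS2KD replicate 3 the lysosomal list had 8 calls and the ER list 1; without any of the other 5 arrays both had 0, apart from 1 lysosomal call without alphaIRS1KD replicate 3. With the control arrays in the fit they had 16 and 11.

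**Figure D5:**
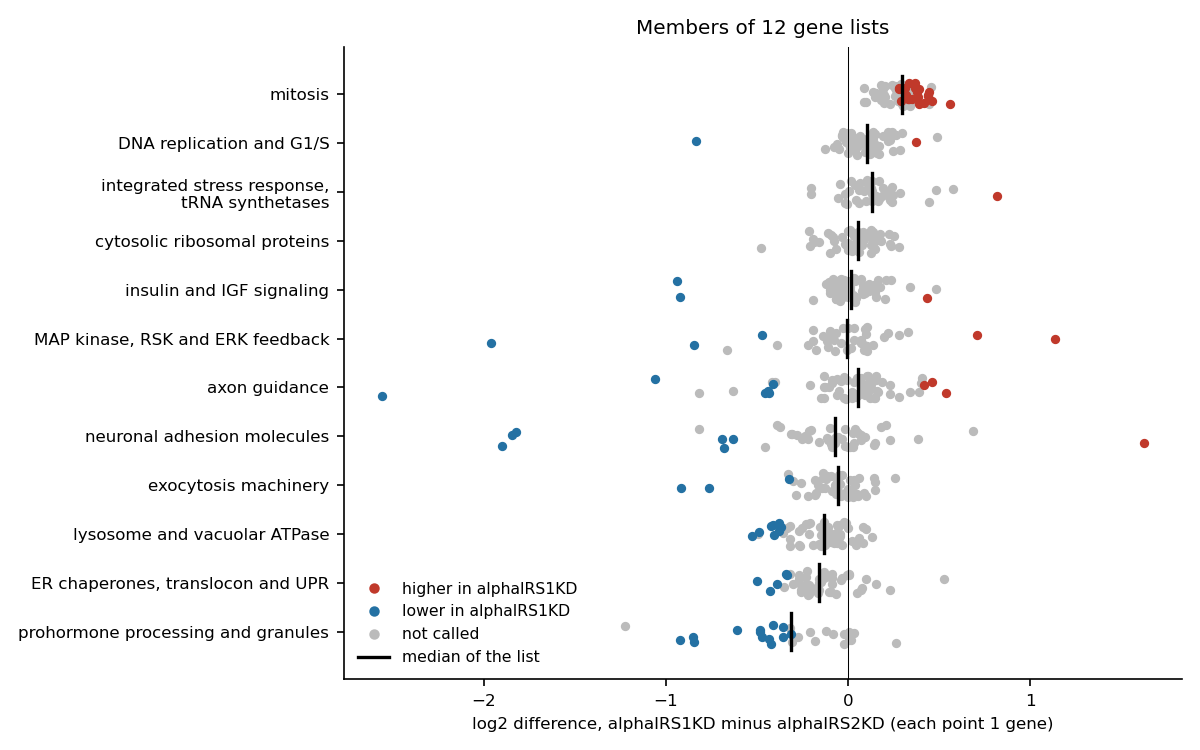
Log2 difference between alphaIRS1KD and alphaIRS2KD cells for each member (points) of 12 gene lists, with called genes coloured and the median of each list as a line. Mitosis genes lay right of 0 (median 0.30), and genes of hormone granules, the ER and the lysosome lay mostly left of it (medians -0.32, -0.16 and -0.13).

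Of 62 measured genes of the insulin and IGF pathway, Irs2 was the only one called higher (1.61%, against 0.96% of all genes), and Irs1 and Tbc1d4, an AKT substrate that holds back glucose transporter vesicles, were called lower (3.23%, against 1.34%), with a median of 0.02. Irs1 and Irs2 are the hairpin targets, so their calls do not describe the rest of the pathway. Tbc1d4 was the only other gene called. Without any 1 array other than alphaIRS2KD replicate 3 the list had 0 higher genes and 1 lower. Tbc1d4 gave 5.55, 5.44 and 5.68 in alphaIRS1KD cells, against 6.62, 6.63 and 6.24 in alphaIRS2KD cells, with control levels of 5.55 to 5.57 beside alphaIRS1KD cells (1.92-fold lower, adjusted p = 0.017). Insr, the insulin receptor (0.04, adjusted p = 0.78), Akt1 (0.08, adjusted p = 0.60) and Foxo1, a transcription factor that AKT keeps out of the nucleus (0.08, adjusted p = 0.63), did not pass the test. Of 42 genes of MAP kinases, RSK kinases and ERK feedback, 2 were higher (4.76%, against 0.96% of all genes) and 3 lower (7.14%, against 1.34%). Mapk12 and Mapk11, which encode p38 gamma and beta and lie side by side on chromosome 15, were both higher. Mapk12 gave 6.80, 6.78 and 6.68 in alphaIRS1KD cells, against 5.79, 5.53 and 5.52 in alphaIRS2KD cells (2.20-fold, adjusted p = 0.0029). Mapk11 gave 7.04, 6.77 and 6.92 in alphaIRS1KD cells, against 6.27, 6.28 and 6.06 in alphaIRS2KD cells (1.63-fold, adjusted p = 0.018). Beside Rps6ka6, Egr1, an immediate early transcription factor (-0.85, adjusted p = 0.0054), and Mapk10, the JNK3 kinase (-0.47, adjusted p = 0.014), were lower. Without alphaIRS1KD replicate 1, 2 or 3 or alphaIRS2KD replicate 1 or 2, this list had 1 higher and 2 lower genes, and without alphaIRS2KD replicate 3 it had 2 and 3.

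Genes of neuronal adhesion and axon guidance held several of the largest differences. Of 49 adhesion genes 1 was higher (2.04%, against 0.96% of all genes) and 6 lower (12.2%, against 1.34%). Nrxn2, a presynaptic neurexin, gave 6.03, 6.10 and 5.79 in alphaIRS1KD cells, against 7.87, 7.91 and 7.84 in alphaIRS2KD cells (3.74-fold lower, adjusted p = 0.00079), although its second probe differed by -0.28 (adjusted p = 0.23 over all probes). Chl1, a relative of L1CAM, gave 4.29, 4.54 and 4.67 in alphaIRS1KD cells, against 6.35, 6.61 and 6.08 in alphaIRS2KD cells (3.60-fold lower, adjusted p = 0.0039). Its alphaIRS1KD signals lay below the array medians and may be background. Nrn1, the membrane-anchored neuritin, gave 5.34, 5.03 and 5.14 in alphaIRS1KD cells, against 6.97, 7.18 and 6.82 in alphaIRS2KD cells (3.54-fold lower, adjusted p = 0.0021). Cntnap2, a neurexin-like protein (-0.63), Adgrl2, a latrophilin (-0.68), and Ncam2 (-0.69) were lower by less, and only Clstn1 was higher, with 8.50, 8.55 and 8.72 in alphaIRS1KD cells, against 6.87, 7.02 and 7.00 in alphaIRS2KD cells (3.08-fold, adjusted p = 0.00085). The list had 5 lower genes and 1 higher without each array in turn.

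Of 69 axon guidance genes, 3 were higher (4.35%, against 0.96% of all genes) and 6 lower (8.7%, against 1.34%), among them Nrp2. Efnb2, a ligand of Eph receptors, gave 6.72, 6.56 and 6.49 in alphaIRS1KD cells, against 7.71, 7.74 and 7.49 in alphaIRS2KD cells (2.08-fold lower, adjusted p = 0.0045). The netrin receptors Unc5c (-0.45) and Dcc (-0.44) were lower, while Ntn1, the ligand netrin 1, was higher (0.46), as was Efna5, another ephrin (0.54), with adjusted p between 0.011 and 0.044. Without alphaIRS2KD replicate 3 the list had 1 higher and 7 lower genes, and without any other array 0 higher and 2 or 3 lower. Of 52 cadherins, protocadherins and partners, 1 was higher (1.92%, against 0.96% of all genes) and 3 lower (5.77%, against 1.34%). Cdh11, a cadherin of mesenchymal cells, gave 5.84, 5.42 and 5.78 in alphaIRS1KD cells, against 7.28, 7.65 and 7.46 in alphaIRS2KD cells (3.44-fold lower, adjusted p = 0.0030). Ctnna1, which links cadherins to actin, gave 6.50, 6.51 and 6.45 in alphaIRS1KD cells, against 7.92, 7.96 and 7.80 in alphaIRS2KD cells (2.65-fold lower, adjusted p = 0.00058). Control levels of Cdh11 (5.73 to 5.94) lay beside alphaIRS1KD cells and those of Ctnna1 (6.75 to 6.91) between the lines.

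Of 48 genes of calcium channels and transport, 2 were higher (4.17%, against 0.96% of all genes) and 3 lower (6.25%, against 1.34%). On leaving out each array in turn the list had 1 lower gene, and it had 0 or 1 higher genes except without alphaIRS2KD replicate 3, which gave 2. Cacna1a, the pore of P/Q-type channels (0.80, adjusted p = 0.016), and Cacna1i, a T-type pore (0.35, adjusted p = 0.024), were higher. Cacnb2, a beta subunit, gave 5.56, 5.52 and 5.57 in alphaIRS1KD cells, against 6.46, 6.48 and 6.43 in alphaIRS2KD cells (1.87-fold lower, adjusted p = 0.0012); its second probe was not called (0.00, adjusted p = 1.0 over all probes). Cacna2d1, an alpha2delta subunit (-0.39, adjusted p = 0.028), and Ryr2, a release channel of the ER (-0.48, adjusted p = 0.019), were lower as well. Of 59 potassium, sodium and chloride channel genes, Ano1 was the only one higher (1.69%, against 0.96% of all genes), and 4 were lower (6.78%, against 1.34%). The lower genes were Scn9a, a sodium channel pore (-0.81), Kcnk1, a leak potassium channel (-0.68), Abcc9, a sulfonylurea receptor (-0.59), and Kcnj3, a G protein-gated potassium channel (-0.44). Their adjusted p lay between 0.0037 and 0.043. A second probe of Kcnj3 differed the other way (0.18, adjusted p = 0.76 over all probes). Leaving out 1 array gave 1 or 2 lower genes, with 2 only without alphaIRS1KD replicate 3 or alphaIRS2KD replicate 3.

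Receptors and signaling proteins of several kinds were also called. Of 98 receptors for hormones and transmitters, 3 were higher (3.06%, against 0.96% of all genes) and 5 lower (5.1%, against 1.34%). The counts were 1 higher without alphaIRS1KD replicate 2, and 3 lower without alphaIRS2KD replicate 1 or 2. Ghsr gave 5.92, 5.89 and 5.19 in alphaIRS1KD cells, against 7.46, 7.42 and 7.36 in alphaIRS2KD cells (3.34-fold lower, adjusted p = 0.0095), and Npr3, the clearance receptor of natriuretic peptides, gave 5.51, 5.41 and 5.69 in alphaIRS1KD cells, against 6.97, 6.98 and 6.91 in alphaIRS2KD cells (2.67-fold lower, adjusted p = 0.0013). Avpr1b, a vasopressin receptor (-0.91), and Grik2, a kainate receptor (-0.78), were lower, while Calcr, the calcitonin receptor (0.68), and Grik3, another kainate receptor (0.67), were higher, with adjusted p between 0.0039 and 0.0072. Among genes of G protein signaling, Rgs2, which speeds the turn-off of G proteins, gave 7.66, 7.51 and 7.67 in alphaIRS1KD cells, against 8.58, 8.64 and 8.41 in alphaIRS2KD cells (1.90-fold lower, adjusted p = 0.0045). Control levels of Rgs2 (7.29 to 7.40) lay beside alphaIRS1KD cells, and its dimmer probe differed by -0.34 (adjusted p = 0.51 over all probes). Gng12, a gamma subunit (-0.70), was lower, and Gnai1, an inhibitory alpha subunit (0.61), and Pde7b, a phosphodiesterase of cAMP (0.94), were higher, with adjusted p between 0.0075 and 0.011. A second probe of Gng12 differed the other way (0.27, adjusted p = 0.41 over all probes).

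B2m, the light chain of MHC class I, gave 9.94, 10.02 and 9.98 in alphaIRS1KD cells, against 10.82, 10.87 and 10.68 in alphaIRS2KD cells, with control levels of 11.45 to 11.56 above both (1.75-fold lower, adjusted p = 0.0035). B2m and Tapbp were the only 2 of 46 MHC class I and interferon genes called (4.35%, against 1.34% of all genes called lower). Foxp2, a forkhead transcription factor, was 2.07-fold higher, with 6.57, 6.43 and 6.64 in alphaIRS1KD cells, against 5.55, 5.53 and 5.41 in alphaIRS2KD cells (adjusted p = 0.0023). Apbb1, an adaptor of the amyloid precursor protein (-0.29, adjusted p = 0.076), Foxj2 (0.19, adjusted p = 0.28) and Hoxd13 (0.03, adjusted p = 0.94) did not pass the test.

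Of 70 nuclear genes of the respiratory chain and ATP synthase, Ndufa1, of complex I (-0.41, adjusted p = 0.029), and Atp5l, of ATP synthase (-0.30, adjusted p = 0.032), were lower (2.86%, against 1.34% of all genes), with a median of -0.05, and the list had 0 calls on leaving out each array in turn. No gene was called among 70 mitochondrial ribosomal proteins, 60 cytosolic ribosomal proteins and 54 translation factors, with medians of -0.05, 0.06 and -0.02. Of 43 genes of the integrated stress response and the tRNA synthetases, only Slc7a3, an importer of cationic amino acids, was higher (0.82, adjusted p = 0.022; 2.33% of the list, against 0.96% of all genes), with a median of 0.13. It was not called on leaving out 1 array, apart from alphaIRS2KD replicate 1 or 3.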

How the data were processed

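Affymetrix Mouse Gene 2.0 ST arrays were hybridized with RNA of 3 alphaIRS1KD, 3 alphaIRS2KD and 3 control samples of alpha TC6 cells. The authors ran RMA, whose version is not given in the sources used here, and deposited log2 values that are background-corrected, normalized between arrays and summarized per transcript cluster. Samples were grouped by the genotype label. Of 41345 probes, 23521 carried 1 gene symbol and were kept, 1820 carried several and 16004 none. For 1082 genes with several probes the one with the highest mean over all 9 arrays was used, which gave 22180 genes. The precision is limited by the number of arrays.

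The 6 knockdown arrays were fitted with limma 3.58.1 in R 4.3.3 (lmFit and eBayes, 1 coefficient per line, alphaIRS1KD minus alphaIRS2KD), with Benjamini-Hochberg adjustment over all genes, with calls made below an adjusted p of 0.05. The fitting code was tested on simulated data. The gene lists and the genes in them were chosen with earlier results of these data known. Named genes were Irs1, Irs2, genes that the study singled out (Tapbp, Pam, Tpp1, Scg5, Cartpt, Snap25, Eif2ak3, Apbb1, Cacna2d1, Ano1, Foxp2, Hoxd13, Foxj2 and Gcg), the 15 largest differences per direction without overlap of arrays (predicted genes skipped), the 8 brightest called genes per direction and up to 6 called members of each list. Further list members (such as Cdk1, Mki67, Insr, Akt1, Cpe and Iapp) were named after their values were seen. Pcsk2 was not analysed here. Lists are described by counts and medians without a test. Alternatives covered the samples in the fit, the threshold, the test, scaling, filtering, the choice of probe, a replicate block and leaving out each array.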

Additional observations from a re-analysis of the deposited data

How the results depend on the processing

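Of 130 named genes that were called, none changed sign under any alternative. The threshold, the test, the prior, the filter, the control arrays and the replicate block leave the difference itself unchanged, so they could not change a sign. Leaving out 1 array could not do so either for genes whose arrays did not overlap. Many genes lost their call: 64 to 77 on leaving out any 1 array other than alphaIRS2KD replicate 3, 29 without that array, 67 with the replicate block, 87 with the methods' t-test after Benjamini-Hochberg adjustment, 70 at an adjusted p under 0.01, 56 at 1.5-fold and 24 with median centring. At most 5 lost it under each of the others. Irs1 kept its call under all alternatives and differed by -0.96 to -0.89 when 1 array was left out; with the mean of both probes it differed by -0.60. Irs2, with a difference of 0.43, lost its call at an adjusted p under 0.01, at 1.5-fold, with the methods' t-test after Benjamini-Hochberg adjustment (adjusted p = 0.063), and with the replicate block (adjusted p = 0.11); leaving out 1 array gave 0.40 to 0.47. Hoxd13, which was not called, ranged over -0.078 to 0.13 on leaving out 1 array.

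The 213 higher and 298 lower genes became 380 and 536 with all 9 arrays in the fit, 381 and 751 with all 9 but without alphaIRS2KD replicate 3 (an alternative chosen after seeing the data), 52 and 98 at an adjusted p under 0.01, 355 and 499 under 0.1, and 92 and 157 with at least 1.5-fold. They became 55 and 83 with the methods' t-test after Benjamini-Hochberg adjustment, 1173 and 1371 with that test at an unadjusted p under 0.05, 368 and 516 with a trended, robust prior, 334 and 467 without the dimmest 30% of genes, and 83 and 164 when all probes were tested. Leaving out 1 array gave 51 to 153 and 76 to 287. Median centring, quantile normalization, array weights and averaging the probes of each gene kept both counts within 1.5 times. The causes of these shifts were not tested.

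The labels number the arrays of each line 1 to 3. Same-numbered arrays did not deviate together (r across genes -0.02, -0.03 and -0.08), so the number was not taken as a pairing; with it as a replicate block the counts were 67 and 114, and the mitosis list had 0 calls. A low signal has no detection call here, so differences of dim genes may be understated. Another scaling moved the median of all genes by at most 0.01.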

Other observations

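Of 7 measured Y-linked genes, 2 were higher in alphaIRS1KD cells (28.6%, against 0.96% of all genes), at low signal. Eif2s3y, the Y copy of a translation initiation factor subunit, gave 5.60, 5.84 and 6.18 in alphaIRS1KD cells, against 4.61, 4.10 and 4.12 in alphaIRS2KD cells, with control levels of 4.42 to 4.59 (adjusted p = 0.012, limma). Uty, a relative of an X-linked histone demethylase, gave 4.31, 4.56 and 4.46 in alphaIRS1KD cells, against 3.28, 3.47 and 3.36 in alphaIRS2KD cells (adjusted p = 0.0030). The remaining 5 were not called, and all 7 had a mean signal over the 6 arrays below 5.2.

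Of 53 imprinted genes, 3 were higher (5.66%, against 0.96% of all genes) and 2 lower (3.77%, against 1.34%). Beside Zdbf2 and Ano1 these were Calcr (0.68) and Asb4, of a ubiquitin ligase (0.70), both higher and both on chromosome 6, and Plagl1, a zinc finger transcription factor (-0.43). Among 27 genes of liver-type plasma proteins, Alb and Serpina1c were higher (7.41%, against 0.96% of all genes) and Ttr was lower (3.7%, against 1.34%). Serpina1c (0.77, adjusted p = 0.015) encodes a protease inhibitor with near-identical copies that a probe may not separate.

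Called genes lay on all chromosomes, and the median difference of a chromosome other than Y stayed between -0.01 and 0.02. The X chromosome held 10 higher (1.11%) and 22 lower (2.45%) genes of 899, and chromosome 19 held 7 (0.972%) and 19 (2.64%) of 720. Over all genes the shares were 0.96% and 1.34%. Chromosomes 1, 18 and 12 came close, with 2.2%, 2.12% and 2.01% called lower. The only run of 3 neighbouring called genes was Uchl5, Rgs2 and Rgs13 on chromosome 1, all lower (-0.56, -0.93 and -1.07). Neighbouring pairs included Prkaa2 and Plpp3 (-0.89 and -1.90) and Ptprn and Resp18, both lower, and Apela and Smim31 (0.99 and 2.07), both higher.

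When all 41345 probes were tested, 83 were higher and 164 lower, among them 72 and 134 of the 23521 with 1 gene symbol. Of the 16004 without a gene symbol 10 were higher and 24 lower, and of the 1820 with several symbols 1 was higher and 6 were lower. The probes without a symbol or with several are unnamed here.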
